A study of Homo sapiens with 6 samples.

Results

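DDIT3, CEBPB, CEBPG, CEBPD and CEBPA form the group described here: CHOP, encoded by DDIT3, and 4 transcription factors of the C/EBP family. They were taken by the gene symbol in the deposited signal table, which holds 1 probe for each, so 5 of 47230 probes are members. The genes were selected on results of these same arrays, the difference between siNR4A1 and siControl signals of DDIT3 and CEBPB among them. Their values in that contrast are therefore given as a description, without a p-value. RNA for the bead arrays came from PANC-1, a human cell line long established from a pancreatic carcinoma, into which a small interfering RNA had been transfected. In the siNR4A1 group, written siTR4A1 in the sample titles, it was aimed at the orphan nuclear receptor NR4A1, and in the siControl group it was the control RNA. Each group held 3 arrays, and this number limits the precision. Dose, time after transfection and whether replicates were separate cultures are not given in the sources used here. A p-value thus sets each difference against the spread among these 6 samples, which may be technical. For each gene that spread is pooled in part over all genes.

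C/EBP proteins are basic leucine zipper factors that bind DNA as pairs. C/EBP-beta and C/EBP-delta are known for inflammatory and acute-phase transcription and for early steps of adipocyte formation, C/EBP-alpha for differentiation and growth arrest, and C/EBP-gamma for lacking a classical activation domain and pairing with other members. CHOP is the stress-induced relative: it is transcribed when endoplasmic reticulum stress activates the kinase PERK and, through it, the factor ATF4. Amino acid shortage also activates ATF4. CHOP pairs with C/EBP proteins and is altered in its DNA-binding region, so that it keeps its partners from many of their usual sites.

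Upstream sequence is shown for DDIT3 and CEBPB, the members furthest apart between the groups, and for single sites of CEBPB and CEBPG that resemble elements known from stress-responsive genes. All are from RefSeq on GRCh38.p14, written 5′ to 3′ on the strand of the gene. The first lies at chr12:57520518-57520767 (minus strand), 250 bases before the outermost start of DDIT3, with the AP-1 letters and the endoplasmic reticulum stress element without its last base in capitals. The second lies at chr20:50190333-50190582 (plus strand), 250 bases before the outermost start of CEBPB, with GC boxes in capitals. The CEBPB site lies at chr20:50190762-50190791 (plus strand) and the CEBPG site at chr19:33374060-33374089 (plus strand), each a stretch of 30 bases upstream of an inner start, with the matching letters in capitals.
DDIT3 upstream: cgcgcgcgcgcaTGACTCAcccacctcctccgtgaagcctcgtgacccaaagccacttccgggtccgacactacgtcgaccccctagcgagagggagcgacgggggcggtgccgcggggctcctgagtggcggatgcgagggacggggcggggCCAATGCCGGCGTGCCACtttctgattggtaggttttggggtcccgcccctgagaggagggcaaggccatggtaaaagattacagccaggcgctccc
CEBPB upstream: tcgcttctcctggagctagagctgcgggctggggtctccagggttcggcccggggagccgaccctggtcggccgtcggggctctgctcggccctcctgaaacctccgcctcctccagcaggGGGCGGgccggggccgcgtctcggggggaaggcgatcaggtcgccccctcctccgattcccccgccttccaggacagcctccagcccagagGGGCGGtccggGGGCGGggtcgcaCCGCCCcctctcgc
CEBPB site: aggggccggcgTGACGcagcggttgctacg
CEBPG site: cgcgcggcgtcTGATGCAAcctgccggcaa

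Motifs were searched on both strands of the 250 bases before each start, in 35116 RefSeq windows. The AP-1 letters TGANTCA began 238 bases before the DDIT3 start and occurred in 6.57% of all windows. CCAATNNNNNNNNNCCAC, the endoplasmic reticulum stress element without its last base, began 97 bases before that start and occurred in 0.282% of windows. The complete element, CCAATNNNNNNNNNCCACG, contains the shorter one, was present in 0.0740% of windows and was in none of the member windows. The shorter form was searched because the DDIT3 letters were known. GGGCGG, the GC box to which SP factors bind, occurred 3 times before DDIT3 and 4 times before the outermost CEBPB start, against at least 1 match in 42.6% of all windows. TGACG, the core letters of a cyclic AMP response element, stood 57 bases before the inner CEBPB start (21.2% of windows). TGATGNAA, a C/EBP-ATF composite, stood 42 bases before the inner CEBPG start (3.14% of windows). Neither the monomer letters of NR4A receptors, AAAGGTCA (1.05% of windows), nor the C/EBP core TTNNGNAA (33.2% of windows) was in any of the 7 windows of DDIT3, CEBPB, CEBPG and CEBPA. A match is a description of letters and not of binding, and the array probes do not measure which start was used.

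Across the series, 13722 named genes were tested with limma on normalized log2 signals, and 2674 passed a Benjamini-Hochberg adjusted p of 0.05, with a median log2 difference (siNR4A1 minus siControl) of 0.02 over all genes. None of the 3 NR4A1 probes was detected on any array, with signals of 106 ± 9.30 in siNR4A1 and 98.8 ± 10.8 in siControl (SD, n = 3 each) for the brightest, so the knockdown could not be checked. Array brightness differed: mean signal ran from 439 to 520 on the siNR4A1 arrays and from 332 to 623 on the siControl arrays, with siControl replicate 3 the brightest. With array medians equalized, and no quantile step, limma called 0 genes, with 1088 at an unadjusted p under 0.05. Each list gene named below by the fixed rule kept its direction, an outcome that its selection on these same arrays favours. On each array the median probe, with a signal between 92.8 and 125, lay below that array's detection threshold. Of 7 markers of epithelial or pancreatic carcinoma cells, 5 were detected, KRT8, KRT18, KRT19, EPCAM and VIM, while KRT7 and CDH1 were detected on no array.

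DDIT3, CEBPB and CEBPG were higher in siNR4A1 cells, DDIT3 and CEBPB about to the same degree and CEBPG less, while CEBPD and CEBPA overlapped between the groups. All 5 members entered the fit, and 3 of them had an adjusted p under the threshold, all higher in siNR4A1, where 19.5% of all tested genes passed, 10.8% higher and 8.69% lower. The same 3 had groups that did not overlap on the normalized log2 scale, a pattern met by 35.4% of all genes, 19.7% with siNR4A1 above and 15.6% with siNR4A1 below. Since the members were picked with these results known, nothing is read from the shares. In these bulk samples, more expressing cells and more RNA per cell cannot be told apart.

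**Figure D1:**
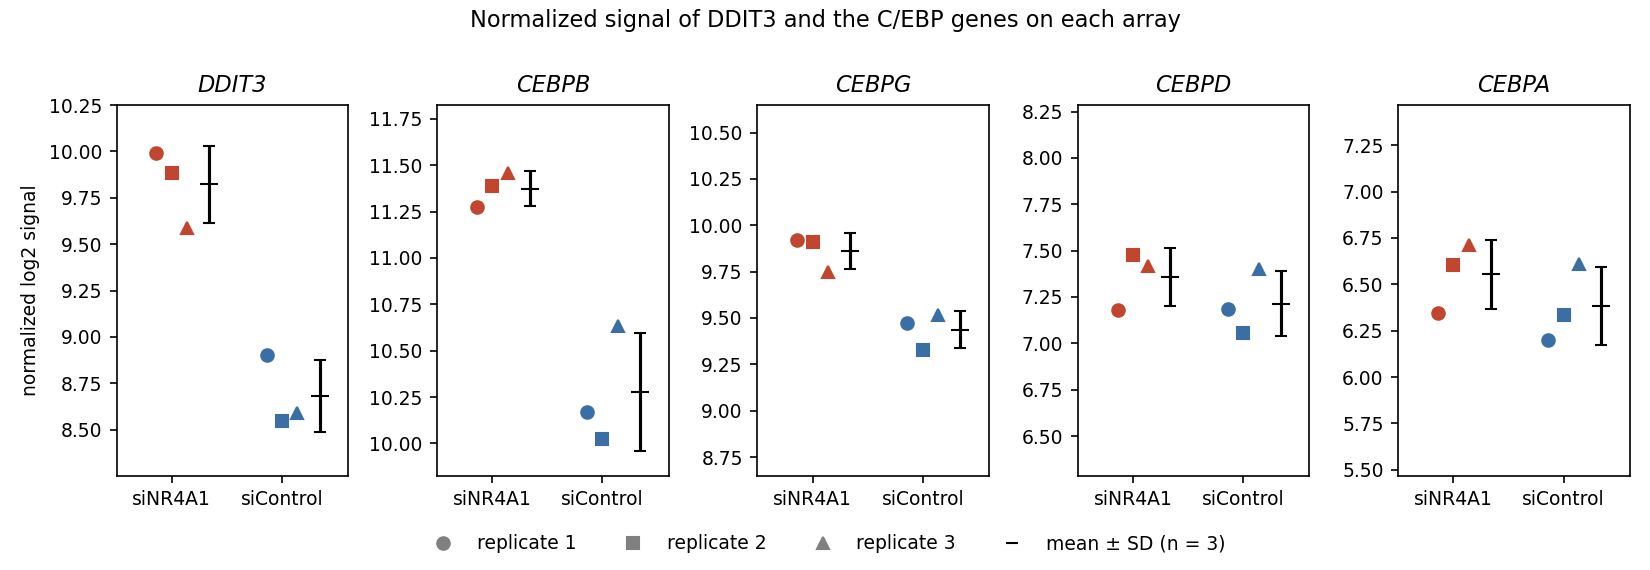
Normalized log2 signal (vertical axis) of each member on the 3 siNR4A1 arrays (red, left) and the 3 siControl arrays (blue, right), 1 panel a gene with its own axis of equal span, with mean ± SD in black. DDIT3, CEBPB and CEBPG are apart between the groups, with differences of 1.14, 1.10 and 0.42, and CEBPD and CEBPA overlap.

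DDIT3, the gene of CHOP, had signals of 1054, 1120 and 917 on the siNR4A1 arrays, against 373, 286 and 631 on the siControl arrays. It was the only member whose groups were apart in the signals as deposited, before any scaling between arrays. The share of all genes apart in the deposited signals was not computed, and DDIT3 was selected on this contrast, so nothing is read from this. After normalization it stood at 9.99, 9.89 and 9.59 in siNR4A1 and at 8.90, 8.55 and 8.59 in siControl (log2). The difference was 1.14 ± 0.13 (SE, n = 3 per group), or 2.21-fold, the 10th highest of 13722 genes. Among the siNR4A1 arrays replicate 3 was the lowest, and it still exceeded every siControl array. RefSeq places MARS1, encoding methionyl-tRNA synthetase, and MIR616 over part of the DDIT3 gene. The probe named MARS, an older symbol that RefSeq lists for more than 1 gene, was singled out after its values were seen and went the other way, at 10.02, 9.81 and 9.78 in siNR4A1 and 10.24, 10.30 and 10.17 in siControl, a difference of -0.37 ± 0.11 (SE; limma, adjusted p = 0.0290). MIR616 was detected on no array.

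CEBPB, encoding C/EBP-beta, had signals of 2505, 3109 and 3324 on the siNR4A1 arrays and of 846, 719 and 2508 on the siControl arrays. The deposited signals thus overlapped, since bright siControl replicate 3 slightly exceeded siNR4A1 replicate 1. After normalization the values were 11.27, 11.39 and 11.46 in siNR4A1 and 10.17, 10.03 and 10.64 in siControl, and the groups were apart. The difference was 1.10 ± 0.14 (SE, n = 3 per group), or 2.14-fold, the 14th highest of all tested genes. Leaving out 1 array at a time gave differences from 0.97 to 1.28, the highest without siControl replicate 3. The residual spread of CEBPB exceeded that of 91.8% of tested genes, and most of it came from the siControl arrays, with an SD of 0.093 in siNR4A1 and 0.32 in siControl (log2). Its residual SD was 0.235 against a median of 0.136 over all genes, and the SE above was moderated toward the common spread. RefSeq places CEBPB-AS1, an antisense RNA, over part of CEBPB.

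CEBPG, encoding C/EBP-gamma, had signals of 1006, 1146 and 1022 in siNR4A1 and 540, 461 and 1172 in siControl, and siControl replicate 3 was the highest of all 6 arrays before scaling. Its normalized values were 9.92, 9.91 and 9.75 in siNR4A1 and 9.47, 9.32 and 9.52 in siControl. They were apart by 0.42 ± 0.11 (SE, n = 3 per group), or 1.34-fold. Its residual spread was low, above that of 23.6% of tested genes. CEBPG no longer passed the threshold without siNR4A1 replicate 1, at 0.39, or without siNR4A1 replicate 2, at 0.39.

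CEBPD, encoding C/EBP-delta, had normalized values of 7.18, 7.48 and 7.42 in siNR4A1 and 7.18, 7.05 and 7.40 in siControl. Its difference was 0.14 ± 0.12 (SE, n = 3 per group), with a 95% interval from -0.11 to 0.40. The estimates for DDIT3 and CEBPB lie outside that interval, and that for CEBPG just outside it. The 95% interval of CEBPG itself, from 0.19 to 0.66, overlaps that of CEBPD, and differences between members were not tested. The CEBPD signals were 166, 229 and 222 in siNR4A1 and 143, 130 and 278 in siControl, above the detection threshold on every array. CEBPA, encoding C/EBP-alpha, was near the background, detected on 2 siNR4A1 arrays and 1 siControl array, with signals of 105, 138 and 148 in siNR4A1 and 93.1, 95.6 and 158 in siControl. Its normalized difference was 0.17 ± 0.13 (SE, n = 3 per group), with a 95% interval from -0.10 to 0.45. With medians of detected probes equalized it was -0.01, so no direction is given for CEBPA. Near the background the offset added to each signal shrinks differences.

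A ratio of 2 members on 1 array removes a brightness factor common to both, but not the effect of the added offset. The 10 pairs were set out in this way, from background-corrected signals before any scaling between arrays. The offset shrinks ratios to dim probes more on dim arrays, and siControl replicates 1 and 2 were dimmer than every siNR4A1 array. How much this adds to the differences against CEBPD and CEBPA was not tested. A pair ratio otherwise shows unequal change between its members and not which of them changed. In 7 pairs every siNR4A1 array lay above every siControl array, and 3 pairs overlapped. The pairs share members, so they are not independent, and DDIT3 and CEBPB were selected on this contrast. Ratios of other genes were not set out, so nothing is read from these counts. DDIT3 over CEBPB had log2 ratios of -1.27, -1.50 and -1.90 in siNR4A1 and -1.24, -1.40 and -2.06 in siControl, and the group means differed by 0.01. DDIT3 over CEBPG stood at 0.07, -0.03 and -0.16 in siNR4A1 and at -0.56, -0.73 and -0.94 in siControl, a difference of 0.70 with the groups apart. CEBPB over CEBPG differed by nearly as much, at 0.69, from 1.34, 1.47 and 1.74 in siNR4A1 against 0.67, 0.67 and 1.12 in siControl. DDIT3 and CEBPB each moved against CEBPD by 1.15 and 1.14 and against CEBPA by 1.20 and 1.19, always with siNR4A1 above. The CEBPA ratios, 2 of the 7 pairs, rest on a probe above the detection threshold on 2 siNR4A1 arrays and 1 siControl array, so their sizes are uncertain. CEBPG over CEBPD differed by 0.45 with the groups apart, whereas CEBPG over CEBPA (0.50) and CEBPD over CEBPA (0.05) overlapped. Within each group DDIT3 over CEBPB was lowest on replicate 3, as the panel of pair ratios shows.

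**Figure D2:**
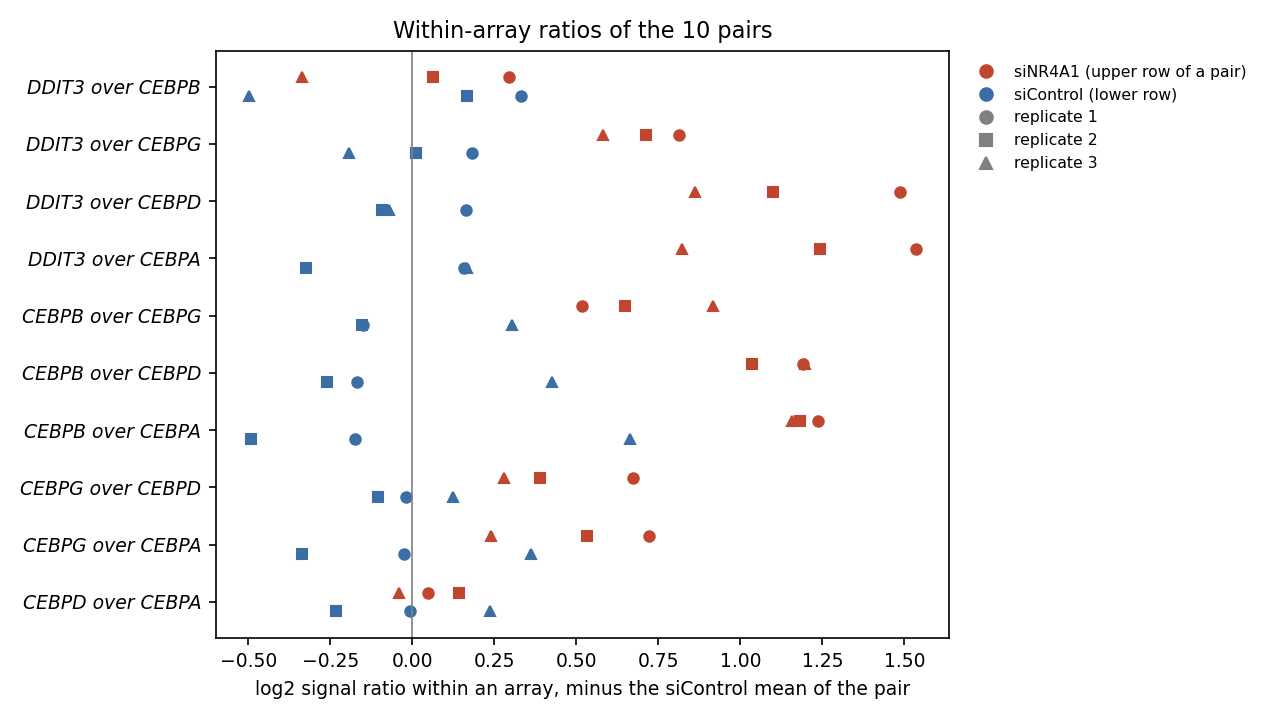
Log2 signal ratios of the 10 member pairs within each array (horizontal axis, with the siControl mean of each pair set to 0), siNR4A1 in red above siControl in blue, marker shapes for replicates 1 to 3. DDIT3 over CEBPB overlaps between the groups, while both stand higher against CEBPG, CEBPD and CEBPA on all siNR4A1 arrays.

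The pathway lists used from here on were chosen with earlier results of these data known, so nothing is read from their counts. Of 23 listed basic leucine zipper partners and relatives 17 were tested, and 2 rose, 0 fell and 15 did not pass, or 11.8% against 19.5% over all genes, with a median log2 difference of 0.06 against 0.02. Both that rose belong to the AP-1 family. FOSL1, a FOS-related subunit of AP-1, stood at 9.84, 9.79 and 9.91 in siNR4A1 and 9.20, 9.58 and 9.45 in siControl, a rise of 0.44 ± 0.12 (SE; limma, adjusted p = 0.0152). FOSL2, its relative, rose by 0.34 ± 0.11 (SE; adjusted p = 0.0426), a call lost in 11 of 17 alternatives, and that of FOSL1 was lost in 3. ATF4, the factor that drives DDIT3 in the stress response, differed by 0.02 ± 0.10 (SE), and ATF3, another stress-induced partner of CHOP, by 0.15 ± 0.13 (SE). ATF5, which CHOP induces, differed by 0.19 ± 0.13 (SE), and none of these 3, singled out after their values were seen, passed. CEBPE, the myeloid family member, was detected on no array. CEBPZ, an unrelated gene whose symbol RefSeq also lists as an old name of DDIT3, differed by 0.17 ± 0.11 (SE) and did not pass.

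The signalling that leads to DDIT3 in textbook stress responses was examined with 22 listed genes, of which 21 were tested. ERN1, the stress sensor IRE1, rose by 0.36 ± 0.11 (SE; limma, adjusted p = 0.0311), from a probe detected on all 3 siNR4A1 arrays and on 1 siControl array. ATF6B, a relative of the sensor ATF6, fell by 0.45 ± 0.14 (SE; adjusted p = 0.0331), and MBTPS1, the protease that cuts ATF6, fell by 0.35 ± 0.12 (SE; adjusted p = 0.0475). The other 18 did not pass, so 14.3% passed against 19.5% over all genes, and the median was -0.04. All 3 calls were fragile: they were lost in 8, 8 and 10 of 17 alternatives for ERN1, ATF6B and MBTPS1, and the other 2 kept probes of ATF6B differed by -0.31 and -0.11. Without siControl replicate 2 the difference of ATF6B was -0.27. EIF2AK3, the sensor kinase PERK, differed by -0.20 ± 0.11 (SE), and HSPA5, the chaperone BiP, by -0.04 ± 0.12 (SE). These were also singled out after their values were seen.

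Genes known as targets of ATF4 and CHOP formed another list chosen with earlier results known, and nothing is read from its counts. Of 30 listed, 29 had a probe and 22 were tested, of which 5 rose, 1 fell and 16 did not pass. That was 27.3% against 19.5% over all genes (10.8% higher and 8.69% lower), with a median of 0.21. TRIB3, a pseudokinase induced by CHOP that in turn restrains ATF4 and CHOP, stood at 9.06, 9.36 and 9.59 in siNR4A1 and 8.69, 8.34 and 8.58 in siControl, and rose by 0.80 ± 0.14 (SE; limma, adjusted p = 0.000665). PPP1R15A, the phosphatase subunit GADD34 through which CHOP restores translation, stood at 9.57, 9.60 and 9.53 in siNR4A1 and 9.15, 8.99 and 9.41 in siControl. It rose by 0.39 ± 0.12 (SE; adjusted p = 0.0320), a call lost in 8 of 17 alternatives. The cytokine GDF15 rose by 1.54 ± 0.12 (SE), the growth-arrest gene GADD45A by 0.57 ± 0.11 (SE) and the serine synthesis enzyme PSAT1 by 0.43 ± 0.11 (SE). Their adjusted p-values in limma were 5.30e-07, 0.00140 and 0.00979. CARS1, the cysteinyl-tRNA synthetase, fell by 0.87 ± 0.11 (SE; adjusted p = 3.56e-05), and its other kept probe by 0.79.

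Several well-known members of that list did not pass. Singled out after their values were seen, the death receptor TNFRSF10B differed by -0.15 ± 0.11 (SE), the asparagine synthetase ASNS by 0.29 ± 0.11 (SE) and the mTOR inhibitor DDIT4 by -0.42 ± 0.15 (SE). The anti-apoptotic gene BCL2, which CHOP is known to repress, differed by 0.37 ± 0.14 (SE) with a probe detected on 2 siNR4A1 arrays and 1 siControl array. CHAC1, a CHOP-pathway enzyme that degrades glutathione, was not among the tested genes.

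**Figure D3:**
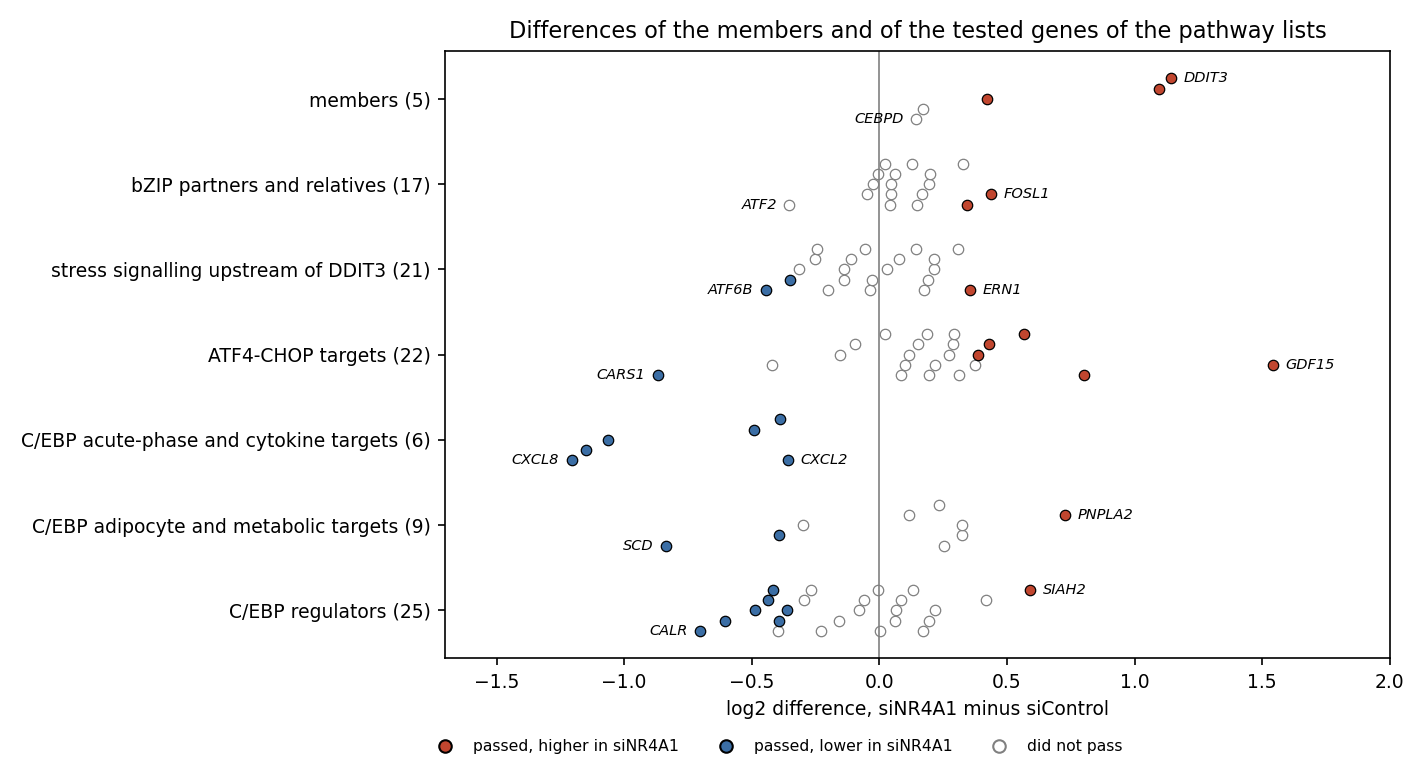
Log2 difference, siNR4A1 minus siControl (horizontal axis), of the 5 members and of every tested gene of the 6 pathway lists, with the number tested in brackets and vertical offsets for legibility only. Filled points passed the threshold and the lowest and highest gene of each row are named. GDF15, at 1.54, is the highest ATF4-CHOP target and CXCL8, at -1.21, the lowest acute-phase and cytokine target, a row in which CCL20 and CXCL2 entered only through siControl.

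CXCL8 and CCL2 had the largest differences among the acute-phase and cytokine genes known as C/EBP targets that were detected in both groups, and both were lower in siNR4A1 cells. Only 6 of 28 listed genes were tested, since the rest were not detected on 3 arrays, and each of the 6 had a lower value in siNR4A1 and an adjusted p under the threshold, which 8.69% of all genes passed lower. Of these, CCL20 and CXCL2 were detected on no siNR4A1 array and on all 3 siControl arrays, so their entry rested on the group in which they were high, and nothing is read from the count. CXCL8, the chemokine interleukin-8, stood at 8.59, 8.21 and 8.45 in siNR4A1 and 9.74, 9.67 and 9.47 in siControl, and fell by 1.21 ± 0.12 (SE; limma, adjusted p = 5.84e-06). CCL2, a monocyte chemokine, stood at 9.32, 9.15 and 9.18 in siNR4A1 and 10.44, 10.56 and 10.09 in siControl, and fell by 1.15 ± 0.13 (SE; adjusted p = 1.23e-05). CCL20 was at least 1.73-fold lower and CXCL2 at least 1.15-fold lower in siNR4A1, with the lowest level detected per array as the bound, and these are given as a description with no test. CXCL1, close in sequence to CXCL2, fell by 0.49 ± 0.16 (SE) and the protease inhibitor SERPINA3 by 0.39 ± 0.11 (SE). The SERPINA3 probe was near the background, detected on 2 siNR4A1 arrays and on all 3 siControl arrays, with siNR4A1 signals of 96.6, 122 and 127. Adjusted p was 0.0393 for CXCL1 and 0.0225 for SERPINA3 in limma. The calls of CXCL1 and SERPINA3 were lost in 7 and 4 of 17 alternatives, and without siNR4A1 replicate 2 CXCL1 differed by -0.25. Without siControl replicate 1 the list had 2 calls, and without siControl replicate 2 or siControl replicate 3 it had 3. In each of these settings CCL20 and CXCL2 missed the detection filter and were not tested. IL6, SAA1 and LCN2, textbook targets of C/EBP-beta and C/EBP-delta, were not among the tested genes.

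The adipocyte and metabolic targets were mostly undetected in these cells, with 9 of 23 tested. PNPLA2, the lipase that opens triglyceride breakdown, rose by 0.73 ± 0.11 (SE; limma, adjusted p = 0.000271). Its values were 8.60, 8.49 and 8.51 in siNR4A1 and 7.69, 7.76 and 7.95 in siControl. The desaturase SCD fell by 0.83 ± 0.12 (SE; adjusted p = 0.000193), and SREBF1, the lipid synthesis factor, by 0.39 ± 0.11 (SE; adjusted p = 0.0213), with its other kept probe at -0.19 and its call lost in 4 of 17 alternatives. The remaining 6 did not pass, so 33.3% passed against 19.5% over all genes, and the median was 0.23. PPARG and FABP4, the adipocyte genes that C/EBP-beta and C/EBP-alpha switch on, were not among the tested genes.

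Of 28 listed regulators of C/EBP proteins 25 were tested, and 1 rose, 7 fell and 17 did not pass. That was 32.0% against 19.5% over all genes (10.8% higher and 8.69% lower), with a median of -0.08. This list too was chosen with earlier results known, and nothing is read from its counts. CALR, an RNA-binding repressor of C/EBP translation beside its role as a chaperone, fell by 0.70 ± 0.11 (SE; limma, adjusted p = 0.000452). JAK1 and STAT3, which carry the interleukin-6 signal to CEBPB and CEBPD, fell by 0.60 ± 0.12 (SE) and 0.49 ± 0.11 (SE). Adjusted p was 0.00232 for JAK1 and 0.00617 for STAT3 in limma. JAK1 stood at 8.14, 8.46 and 8.31 in siNR4A1 and 8.85, 9.08 and 8.78 in siControl, and STAT3 at 9.23, 9.47 and 9.45 in siNR4A1 and 9.96, 9.88 and 9.77 in siControl. Of the other 2 kept STAT3 probes 1 differed by -0.60 and 1 by -0.22. The cell cycle kinase CDK2 fell by 0.44 ± 0.12 (SE) and the acetyltransferase EP300, a C/EBP coactivator, by 0.42 ± 0.12 (SE). Adjusted p was 0.0145 for CDK2 and 0.0183 for EP300 in limma, and the other kept CDK2 probe differed by -0.25. SIAH2, a ubiquitin ligase for C/EBP-delta, rose by 0.59 ± 0.16 (SE; adjusted p = 0.0132). The calls of CDK2, EP300 and SIAH2 were lost in 4, 5 and 5 of 17 alternatives and that of STAT3 in 2. Without siNR4A1 replicate 1 the list had 5 calls, and without siNR4A1 replicate 3 or siControl replicate 1 it had 4. TRIB1, the pseudokinase that directs C/EBP-alpha to degradation, differed by 0.00 ± 0.10 (SE) and was singled out after its value was seen.

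Genes whose profile lay nearest to DDIT3 and to CEBPB were found by the root mean square difference over the 6 arrays of log2 values, each set to 0 at its siControl mean. They were picked for this likeness, and their values are a description. Among the genes near to DDIT3, HPCAL1, a calcium sensor, lay at 0.155. Its values were 10.85, 10.72 and 10.85 in siNR4A1 and 9.77, 9.61 and 9.64 in siControl, and like DDIT3 it was highest on replicate 1 among the siControl arrays. There followed the homeobox gene GBX2 at 0.165, the ubiquitin ligase KCMF1 at 0.177 and RAB11FIP1, a partner of a small GTPase of recycling endosomes, at 0.182. Among the siControl arrays KCMF1 was also highest on replicate 1, but GBX2 and RAB11FIP1 were highest on replicate 3. Of the 3 kept probes of KCMF1 1 went the other way, at -0.18, and the other kept RAB11FIP1 probe differed by 0.33.

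CEBPB had closer neighbours. CRACR2B, a regulator of calcium entry, lay at 0.0837, with 10.04, 10.10 and 10.24 in siNR4A1 and 8.82, 8.83 and 9.22 in siControl. DCP2, the mRNA decapping enzyme, lay at 0.0914, the transcription factor SOX18 at 0.0941, SMIM7, a small membrane protein, at 0.109 and RAB11FIP2 at 0.111. In all 5, as in CEBPB, siControl replicate 3 was the highest siControl array, whereas DDIT3 was highest on siControl replicate 1. The other kept RAB11FIP2 probe differed by 0.59, against 1.03 for the probe used.

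**Figure D4:**
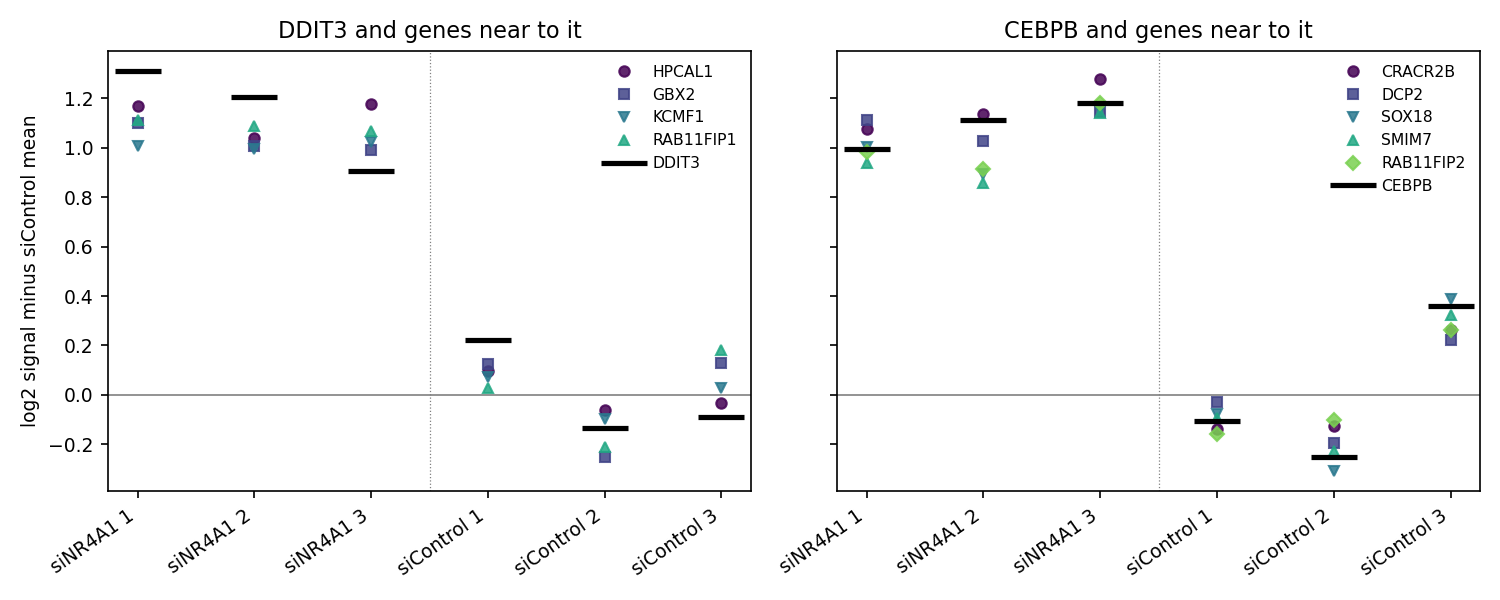
Log2 signal minus the siControl mean (vertical axis) on each array, siNR4A1 left and siControl right, for DDIT3 with 4 genes near to it and CEBPB with the 5 nearest to it (genes in coloured markers, DDIT3 and CEBPB as black bars). HPCAL1 and KCMF1, like DDIT3, are highest among siControl arrays on replicate 1, but GBX2 and RAB11FIP1 on replicate 3. The neighbours of CEBPB share its high value on siControl replicate 3.

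Markers of other cell types were read as a check of the samples. Of 5 leukocyte markers 2 were detected on at least 3 arrays and both rose, CD68, a lysosomal protein, by 0.58 ± 0.11 (SE) and CD14 by 0.44 ± 0.11 (SE). Adjusted p was 0.00127 for CD68 and 0.0114 for CD14 in limma. The summed signal of the list ran from 5112 to 6025 in siNR4A1 and from 2476 to 4970 in siControl, while the T cell marker CD3E was detected on no array. HBA1 rose by 0.40 and ALB fell by 0.32, with HBB, APOA1 and TTR detected on no array. The summed signals of the acinar, islet, hepatocyte, endothelial, stromal and erythroid lists overlapped between the groups. The part of these markers in the differences above was not tested.

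The member differences changed little with most processing choices. Over 17 alternatives DDIT3 ranged from 1.06 to 1.34, CEBPB from 0.97 to 1.34, CEBPG from 0.37 to 0.64 and CEBPD from 0.04 to 0.23, and over the 13 in which it was tested CEBPA ranged from -0.01 to 0.28. The widest errors came with array medians equalized, where the SE of DDIT3 was 0.26 and that of CEBPB 0.35.

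**Figure D5:**
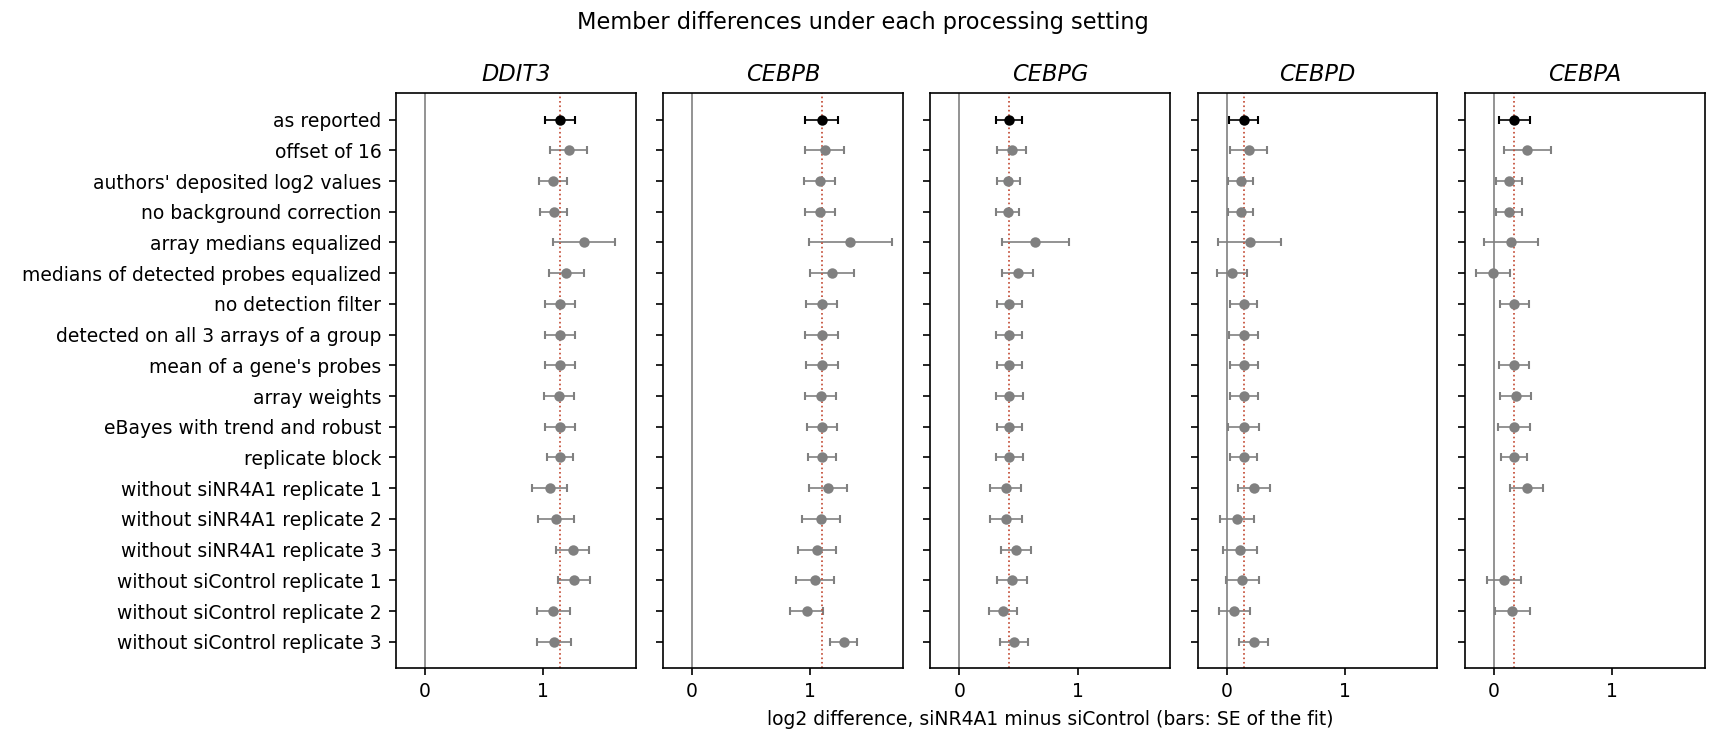
Log2 difference of each member, siNR4A1 minus siControl (horizontal axis, bars show the SE), under the reported processing (black) and each alternative (grey), with a dotted line at the reported value. DDIT3 and CEBPB stay between 0.97 and 1.34 in every setting, while CEBPD runs from 0.04 to 0.23 and CEBPA from -0.01 to 0.28.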

How the data were processed

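Total RNA of 6 PANC-1 samples had been labelled with biotin and hybridised to Illumina bead arrays. The authors deposited a table of linear intensity values without normalization, per the file headers, and the table as given holds no detection p-values. The submitters' processing notes name BeadStudio. The authors' deposited log2 values matched quantile-normalized log2 signals to within 0.005 and served as an alternative.

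Signals were corrected with normexp (offset 50), quantile normalized and taken to log2. Detection meant a signal over the 95% point of the background, estimated from the mode of each array's log2 signals (density bandwidth 0.03) and the spread below it. Detection on 3 or more arrays was required, and the brightest probe stood for its gene. Symbols were updated with the RefSeq gene table of GRCh38.p14. Groups were compared across all 13722 genes without covariates, using limma 3.58.1 under R 4.3.3 (lmFit, then eBayes), with Benjamini-Hochberg adjustment and a threshold of 0.05. Each SE of a difference is moderated by eBayes toward the spread of all genes, with 13.2 prior degrees of freedom. Only the limma step was tested on simulated data, with independent noise on values already normalized, so the earlier steps were not tested. At least N-fold sets the mean of the brighter group against, on each array of the other, the higher of the lowest detected value and the probe's own.

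The members and the pathway lists were chosen with earlier results of these data known. Named were the members, NR4A1, up to 6 genes a list with the largest differences past the threshold, groups apart and detection on all 3 arrays of the higher group (the 2 smallest p-values where fewer than 2 qualified), and the 5 genes nearest to DDIT3 and to CEBPB, apart from an item that is not reported here; further names are marked as seen first. No protein sequences were used here, and no sequence is shown for CEBPD. Alternatives changed the offset, background step, scaling, detection filter, probe choice, array weights, variance model and replicates.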

Additional observations from a re-analysis of the deposited data

How the results depend on the processing

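Over the alternatives DDIT3, CEBPB and CEBPG kept their direction, and all 3 passed in every alternative except with array medians equalized, where none passed, and CEBPG without siNR4A1 replicate 1 or 2. With array medians equalized the differences were 1.34 for DDIT3, 1.34 for CEBPB and 0.64 for CEBPG, and 0 genes passed over all genes and in each of the 6 lists (limma, 1088 at an unadjusted p under 0.05). With that scaling the median of all genes was 0.13, against 0.02 in the reported processing. The differences printed here include that shift. With medians of detected probes equalized 1254 genes passed in place of 2674, with 1 zipper partner, 0 upstream genes, 3 cytokine targets and 2 regulators. Calls among zipper partners were 1 with the authors' log2 values, with no background correction and with no detection filter, and calls among upstream genes were 1 with an offset of 16 and with probes averaged per gene. Leaving out 1 array at a time gave 1505 to 3012 genes, 0 to 2 zipper partners, 0 to 4 upstream genes, 2 to 5 cytokine targets (CCL20 and CXCL2 untested without a siControl array) and 4 to 8 regulators, with the lowest total without siNR4A1 replicate 3 and 1770 without siNR4A1 replicate 2. With the replicate number as a block 2998 genes passed. Deviations of same-numbered arrays correlated at 0.03, 0.08 and 0.17, each above that siControl array's correlation with the other numbers, a hint from the data and not from the labels, so the samples were treated as unpaired. Of 606 values of named list and neighbour genes under the alternatives 498 kept their call and 108 lost it, 36 of them with array medians equalized, and 0 reversed. These genes, like the members, were picked on results of the same arrays, which favours kept calls and directions. CEBPA could not be fitted where its probe failed the detection filter. A slide block was not run, as no slide is given. Probes near the background, such as CEBPA, limit what can be read, and the causes of these differences were not tested.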
